A study of Mus musculus with 5 samples.

Results

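The genes described here encode cell guidance signals and their receptors. They are the Eph receptors and ephrins, the class 3 semaphorins with their plexin and neuropilin receptors, the Slit ligands with Robo receptors, and netrin with its Unc5 and Dcc receptors. They were taken from a list of 43 gene symbols, each looked up in all 5 count tables and kept where at least 10 counts stood in 2 or more libraries. All 43 passed that rule, out of 16323 gene symbols that did, and 42 of the 43 were tested between genotypes.

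The study measured total RNA in mouse forelimb buds. The E10.5 forelimb bud gave 1 library, with the strain label CD1. There were 2 libraries of distal E11.5 forelimb from wild-type embryos and 2 from embryos of the genotype Hoxa13-/-;Hoxd13-/-, called mutant here, all on a mixed C57BL/6 and CD1 background. Hoxa13 was disrupted by a neomycin cassette within its coding sequence, and Hoxd13 by lacZ placed in its first exon. Each E11.5 library came from its own pool of dissected distal tissue.

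Eph receptors are receptor tyrosine kinases that bind ephrins on the surface of neighbouring cells. Such contact can make cells repel each other, adhere or sort into separate domains, and in the limb bud EphA signalling is known for guiding motor axons and for sorting mesenchymal cells. Class 3 semaphorins are secreted and act through neuropilins paired with plexins. Slits act through Robo receptors, and netrin through Dcc, which mediates attraction, or Unc5 receptors, which mediate repulsion. Nerves, vessels and migrating muscle precursors that enter the bud read these cues, and many of the genes are also used by the mesenchyme itself.

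Reads counted in genes ranged from 45115494 to 84172202 per library. Hoxd13 was at 247 and 246 CPM (counts scaled to the library's reads in genes) in the wild-type libraries and at 47.7 and 40.0 in the mutant libraries. Hoxa13 was at 50.8 and 47.2 CPM against 48.0 and 39.8, and since its allele is an insertion this level does not check the genotype. Limb mesenchyme markers were present in every library, Prrx1 and Tbx5 included. Summed marker levels at E11.5 overlapped between genotypes for neurons (78.7 and 85.4 CPM in wild type, 79.6 and 80.5 in mutant), Schwann cells and surface ectoderm. They lay wholly higher in the mutant for endothelium (269 and 244 against 230 and 238 CPM), macrophages (75.7 and 73.0 against 48.5 and 62.8) and erythroid cells, and wholly lower for muscle (57.9 and 74.1 against 88.3 and 101.02). Single markers did not all follow these sums. Of 10 surface ectoderm and ridge markers 1 was called higher and 3 lower, and of 9 neuron markers 1 higher and 2 lower. Of 11 endothelial markers 1 was called higher and 1 lower. Of 9 muscle markers 2 were called, both lower, but 4 had a log2 fold change above 0. Of 9 macrophage markers 2 were called, both higher. Limb mesenchyme markers summed to 1355 and 1293 CPM in the mutant against 1527 and 1429, but this list holds Hoxd13. Without it, an alternative chosen after seeing the data, the sums were 1308 and 1253 against 1280 and 1183 CPM and overlapped, with 1 of 10 higher and 6 lower. Proximal limb markers summed to 264 and 234 CPM against 170 and 151, with 2 of 7 called, Hoxa11 and Hoxd9, both higher, and a list median of 0.08 on the log2 scale. Of the markers, Hba-a1 was at 0 in all libraries. In bulk RNA, fewer cells of a type and less RNA per cell cannot be told apart, and the part of these cell types in the results below was not tested.

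Promoter windows are shown for the 3 genes below that changed in the mutant and whose window held a stretch of at least 60 bases outside annotated exons. They are from RefSeq, build GRCm38.p6, and give the 100 bases before the annotated start on the gene's own strand, with each CG dinucleotide in capitals. The positions are chr16:63864176-63864275 on the minus strand for Epha3, chr5:84417383-84417482 on the minus strand for Epha5 and chr3:89279646-89279745 on the minus strand for Efna1. Efna1 has another annotated start, with its window at chr3:89280902-89281201, which is not shown.
Epha3: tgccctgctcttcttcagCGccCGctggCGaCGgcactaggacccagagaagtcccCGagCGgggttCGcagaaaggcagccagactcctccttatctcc
Epha5: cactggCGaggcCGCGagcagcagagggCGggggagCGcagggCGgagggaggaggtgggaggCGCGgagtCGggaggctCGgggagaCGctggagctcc
Efna1: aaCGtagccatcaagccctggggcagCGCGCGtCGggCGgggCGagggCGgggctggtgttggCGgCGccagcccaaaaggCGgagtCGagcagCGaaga

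The 3 stretches hold 7, 11 and 13 CG dinucleotides at 64%, 77% and 72% G and C. Windows of 300 bases, from 250 before to 50 after the start, were found for 36 of the 43 genes, 41 windows in all. Their median was 21 CG dinucleotides and 64.7% G and C, against 7 and 52.7% over all 32851 promoter windows of that length. The letters CAATAAA, bound by posterior HOX proteins in the literature, stood on either strand in 2 of the 41 windows (4.88%), those of Epha6 and Sema3e, against 4.6% of all windows. TCGTAAA, a second such string, stood in 0 of the 41 against 0.597% of all. Coordinates are of GRCm38.p6, while the deposited counts were made on mm9. Neither string was in the windows of Epha3, Epha5, Efna1 or Sema3c. A match in letters is a description of the window only.

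Levels between genes were compared per kilobase of coding-gene exon (CPM divided by the exon length of GENCODE M21). Epha4, a receptor for ephrins of both classes, was the most abundant EphA receptor in all 5 libraries. It made up 69.3% of the summed EphA level in each wild-type library, 66.04% and 65.9% in the mutant libraries and 60.2% at E10.5. Epha3 followed at E11.5, with 13.2% and 16.4% in wild type and 20.7% and 19.6% in the mutant, while at E10.5 Epha7 stood in that place with 17.4%. Epha6, Epha8 and Epha10 were each at most 0.236% of the family in every library.

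Among EphB receptors, Ephb4, known for its role in veins, held between 59.3% and 68.5% of the summed level in the 5 libraries. Efna4 was the leading ephrin-A ligand, at 52.6% and 53.8% in wild type, 55.5% and 58.0% in the mutant and 47.4% at E10.5. Efnb1 led the ephrin-B ligands with 53.9% and 55.1% in wild type. The neuropilins stood close to each other, with Nrp2 at 58.8% and 55.0% of their sum in wild type and at 42.01% at E10.5. These shares describe the make-up of each library and carry no test.

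**Figure D1:**
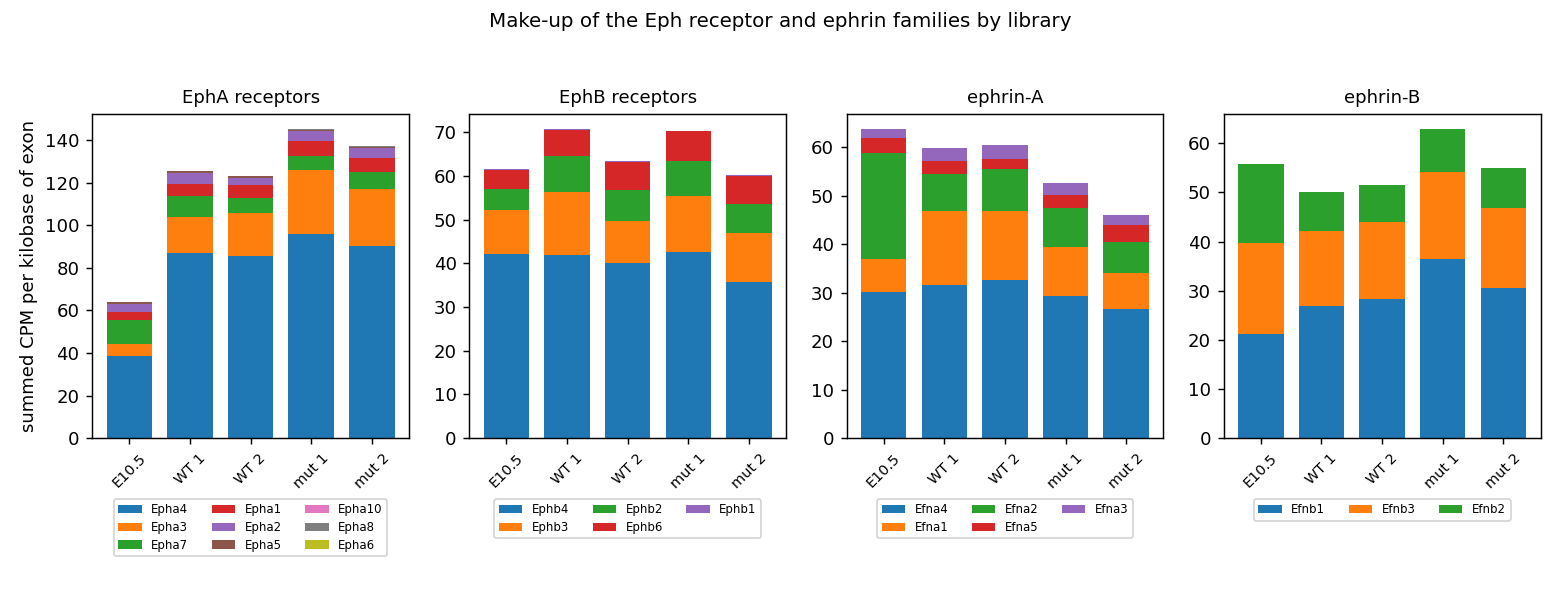
Summed level of each Eph receptor and ephrin family (y axis, CPM per kilobase of exon, linear scale) in the E10.5, wild-type (WT) and mutant (mut) libraries, with 1 coloured segment per gene. The EphA sum was 64.0 at E10.5 and between 123 and 145 in the E11.5 libraries, with Epha4 as the largest segment throughout.

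The first comparison asked which guidance genes differed between mutant and wild-type distal limb at E11.5. Epha3 rose, and Epha5, Efna1 and Sema3c fell (adjusted p below 0.05 in the edgeR quasi-likelihood test over all genes). The other 38 tested genes did not pass the test. The 4 changed genes are 9.52% of the 42 tested, and over all 16166 genes tested 7.16% changed, 3.82% higher and 3.34% lower in the mutant. The median log2 fold change was 0.02 for the guidance genes, with 22 above 0 and 20 below, and -0.000819 for all genes. The libraries of the genotypes did not overlap in CPM for 23 of the 42 genes, 14 higher and 9 lower in the mutant, against 49.5% of all genes tested. Both shares are close to the background and are read as no result about the group.

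Epha3 encodes an EphA receptor that binds ephrin-A ligands. It was at 105 and 128 CPM in the wild-type libraries and at 189 and 169 CPM in the mutant libraries. Both mutant libraries were above both wild-type libraries, and the lower mutant value exceeded the higher wild-type value by more than the gap between the wild-type libraries. The means were 116 ± 16.3 and 179 ± 14.3 CPM (SD, n = 2), a log2 fold change of 0.61 (SE 0.11, edgeR adjusted p = 0.00621), or 1.53-fold. Its log2 value stayed between 0.45 and 0.79 with any 1 library left out, with an adjusted p below the threshold each time.

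Epha5, another EphA receptor and best known from the nervous system, was at 8.84 and 7.15 CPM in wild type and 3.63 and 4.47 CPM in the mutant. The genotypes did not overlap, and the gene stood at a low level in both. The means were 7.99 ± 1.20 and 4.05 ± 0.598 CPM (SD, n = 2), a log2 fold change of -0.99 (SE 0.18, edgeR adjusted p = 0.00621). Epha3 and Epha5, which share ephrin-A ligands, thus moved in opposite directions. In the mutant Epha5 was the smaller by far, at 0.247% and 0.323% of the EphA level per kilobase against 20.7% and 19.6% for Epha3.

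The remaining Eph receptors did not pass the test. Epha4 was at 551 and 541 CPM in wild type and 607 and 571 in the mutant (log2 fold change 0.10, 95% interval -0.09 to 0.28). Epha8, the nearest to the threshold among them, had 0.621 and 0.287 CPM in wild type and 1.54 and 0.787 in the mutant (1.39, SE 0.46, edgeR adjusted p = 0.0987). That rests on 28 and 16 counts against 92 and 38. Epha7, a receptor of repulsive ephrin-A cues, had 74.1 and 52.4 CPM in wild type and 49.5 and 57.7 in the mutant, so its genotypes overlapped. Epha1 (20.3 and 20.6 CPM against 23.1 and 23.0) and Epha10 (0.421 and 0.394 against 0.551 and 0.725) had no overlap between genotypes, and Epha2 (19.3 and 14.1 against 19.3 and 17.7) did overlap. A gene on the opposite strand, Zyx, overlaps 6.97% of the exon length of Epha1, whose values are uncertain for that reason. The EphB receptors had log2 fold changes between -0.07 and 0.07, with none of the 5 called. Epha6 had at most 12 counts in any E11.5 library and was not tested between genotypes.

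Efna1, an ephrin-A ligand anchored in the membrane by a lipid tail, was at 28.2 and 26.3 CPM in wild type and 18.6 and 13.3 in the mutant. Neither mutant library reached the wild-type range. The means were 27.2 ± 1.38 and 15.9 ± 3.78 CPM (SD, n = 2), a log2 fold change of -0.78 (SE 0.15, edgeR adjusted p = 0.00678). The mutant libraries differed from each other in this gene, with a log2 fold change of -1.05 when mutant replicate 1 was left out and -0.56 when mutant replicate 2 was, past the threshold in both cases. Efna1 made up 25.7% and 23.7% of the ephrin-A level per kilobase in wild type and 19.3% and 15.7% in the mutant.

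No other ephrin passed the test. Efna2, Efna3 and Efna4 had log2 fold changes of -0.17, -0.33 and -0.21, and Efna5 had 0.36. The 3 ephrin-B ligands, which are transmembrane proteins, had 0.26 (Efnb1), 0.13 (Efnb2) and 0.12 (Efnb3). Both mutant libraries lay above both wild-type libraries for each of the 3 and for Efna5, and below both for Efna1, Efna3 and Efna4. That is 4 of 8 ephrins above and 3 below, where 26.6% of all genes tested lay above and 22.9% below. Efnb1 was the nearest of the ephrins to the threshold, with 87.9 and 92.5 CPM in wild type, 119 and 99.4 in the mutant and an edgeR adjusted p of 0.180. Genes on the opposite strand overlap 14.6% of the exon length of Efna3 and 10.51% of that of Efna4. Whether the counting used strand is not given, so these values are uncertain.

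Sema3c, a secreted semaphorin that signals through neuropilins with plexins A and D1, had the smallest p-value of the guidance genes. It was at 39.4 and 36.0 CPM in wild type and 20.9 and 23.2 CPM in the mutant. The gap between the genotypes was several times the gap within each. The means were 37.7 ± 2.35 and 22.1 ± 1.67 CPM (SD, n = 2), a log2 fold change of -0.79 (SE 0.10, edgeR adjusted p = 0.000567), or 1.73-fold lower. Leaving out any 1 library gave between -0.72 and -0.86.

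The other class 3 semaphorins were not called. Sema3a, the classical repellent of sensory and motor axons, was at 78.9 and 82.6 CPM in wild type and 73.8 and 79.3 in the mutant (log2 fold change -0.09, 95% interval -0.29 to 0.11). Sema3d was nearest to the threshold, with 43.6 and 47.0 CPM against 50.7 and 58.6 (0.26, edgeR adjusted p = 0.200). Sema3e, a ligand that binds plexin D1 directly, was low in all 5 libraries, at 3.83 and 4.01 CPM in wild type and 3.48 and 3.79 in the mutant. Sema3f, a ligand of neuropilin 2, had 59.0 and 38.4 CPM in wild type and 60.05 and 49.7 in the mutant, with overlapping genotypes.

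Of 7 plexin and neuropilin genes none passed the adjusted threshold at E11.5 with edgeR fitted on genotype alone. DESeq2 called none of the 7. Plxna4 and Nrp2 had an unadjusted edgeR p below 0.05. The share of all genes at that looser cutoff is not given, so it is read as no result. In the roles described above, the uncalled genes Epha8, Efna5, Efnb1 and Sema3d met it too. Plxna4, a receptor that conveys Sema3a signals in axons, was at 74.2 and 40.4 CPM in wild type and 34.5 and 37.2 in the mutant. The mutant libraries were below both wild-type libraries, but the wild-type libraries lay further apart than the second of them lay from the mutant. This is -0.68 on the log2 scale (SE 0.19, edgeR adjusted p = 0.0583), with -0.21 without wild-type replicate 1, but -1.03 without wild-type replicate 2. Nrp2 was at 565 and 542 CPM in wild type and 505 and 453 in the mutant (-0.22, edgeR adjusted p = 0.189), and Nrp1 had a log2 fold change of -0.08. Plxna2 and Plxna3, also receptors for class 3 semaphorins, had 0.04 and -0.13.

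Among Slit and Robo genes none passed the adjusted threshold with edgeR fitted on genotype alone, and none with DESeq2. Slit3 and Slit2, of opposite sign, had an unadjusted edgeR p below 0.05, again without the share of all genes at that cutoff. Slit3 was at 28.2 and 15.7 CPM in wild type and 37.8 and 31.3 in the mutant (log2 fold change 0.65, SE 0.20, edgeR adjusted p = 0.0736). Without wild-type replicate 1 this was 1.10, and with wild-type replicate 2 left out instead it was 0.31. Slit2 was at 42.8 and 35.4 CPM in wild type and 31.5 and 33.6 in the mutant (-0.28, edgeR adjusted p = 0.164). Slit1 was low, at 1.17 and 0.967 CPM in wild type and 1.22 and 1.32 in the mutant. Robo1 and Robo2, the receptors, had -0.01 and 0.10, with 95% intervals of -0.21 to 0.18 and -0.11 to 0.30.

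Netrin and its receptors gave no call with edgeR fitted on genotype alone or with DESeq2. The unadjusted edgeR p of Unc5b was below 0.05, again without the share of all genes at that cutoff. Unc5b, also a receptor of vessel endothelium, was at 128 and 90.5 CPM in wild type and 92.0 and 76.0 in the mutant (log2 fold change -0.39, edgeR adjusted p = 0.130). Leaving out wild-type replicate 1 brought this to -0.15, and leaving out wild-type replicate 2 to -0.59 (edgeR adjusted p = 0.00081). Ntn1 was at 30.5 and 24.9 CPM in wild type and 27.7 and 30.4 in the mutant, and Unc5c at 163 and 171 against 170 and 158, so both overlapped. Dcc was at 4.14 and 1.27 CPM in wild type and 2.56 and 3.75 in the mutant, so that both mutant values lay between the wild-type values.

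For 33 of the 38 genes that were not called, the 95% interval of the log2 fold change lay within a 2-fold change in either direction, compared with 81.4% of the uncalled genes among all tested. The exceptions were Epha8, Epha10, Plxna4, Slit3 and Dcc, for which a 2-fold difference in 1 direction was within the interval.

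**Figure D2:**
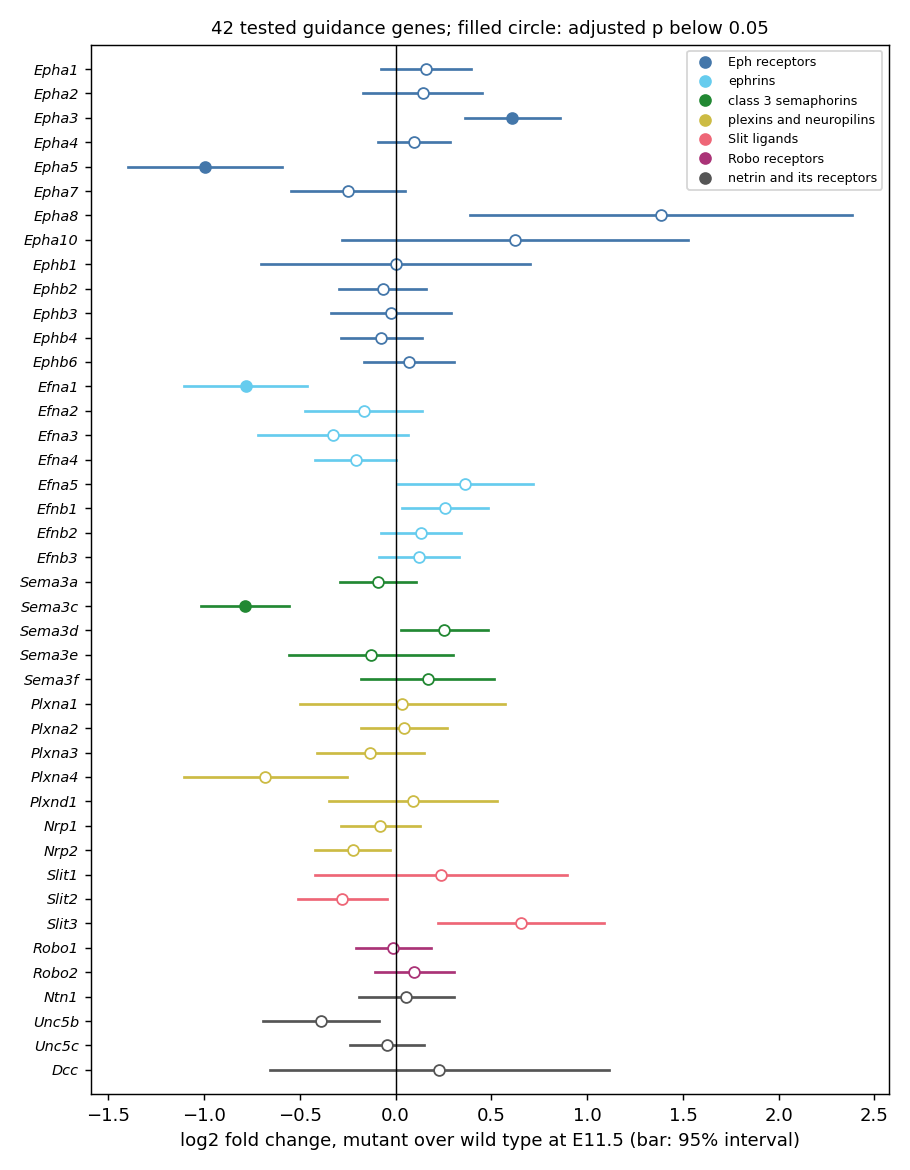
Log2 fold change of mutant over wild type at E11.5 (x axis) for the 42 tested guidance genes (y axis), coloured by role. Bars are 95% intervals, and filled circles mark Epha3 (0.61), Epha5 (-0.99), Efna1 (-0.78) and Sema3c (-0.79), the genes past the adjusted threshold.

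The wild-type libraries differed from each other in several of these genes. The difference reached 1.5-fold for 6 of the 42 genes in wild type (14.3%, against 10.6% of all genes tested) and for 1 in the mutant (2.38%, against 6.94%). All 6 were higher in wild-type replicate 1, as were 1252 of the 1719 such genes among all tested (72.8%). They were Dcc (3.08-fold), Plxna1 (2.17-fold), Epha8 (1.96-fold), Plxnd1 (1.796-fold), Plxna4 (1.77-fold) and Slit3 (1.73-fold), and Epha8 was also the gene that differed in the mutant (1.92-fold). Of the table's sum, 39.2% in wild-type replicate 1 and 30.3% in replicate 2 were reads outside any counted gene, and their part in these differences was not tested. The mutant libraries had 34.4% and 39.6%.

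Plxna1, a receptor for class 3 semaphorins, took its direction from the wild-type library used. It was at 79.9 and 35.5 CPM in wild type and 62.2 and 56.1 in the mutant. Its fold change on the log2 scale was 0.04 with all libraries, 0.69 without wild-type replicate 1 (edgeR adjusted p = 0.00014), but -0.42 without wild-type replicate 2 (0.0106). Plxnd1, a semaphorin receptor of endothelium, was at 39.2 and 21.0 CPM in wild type and 33.6 and 30.7 in the mutant, with 0.57 and -0.27 in the same fits. Genes on the opposite strand overlap 10.7% of the exon length of Plxna1, which adds to its uncertainty.

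The number of guidance genes past the threshold depended on the libraries as well. It was higher in each of the 4 fits with 1 library left out than with all libraries. The number among all genes also rose when a wild-type library was dropped, but fell when a mutant library was. A rise on dropping a wild-type library was thus seen over all genes too, but the shares of the guidance genes and of all genes in these fits were not compared. Each of these fits leaves a single library in 1 genotype. Epha3, Epha5, Efna1 and Sema3c were among the guidance genes past the threshold in each of these fits, with their directions unchanged. Slit3 and Plxna4 each passed in 3 of these 4 fits.

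**Figure D3:**
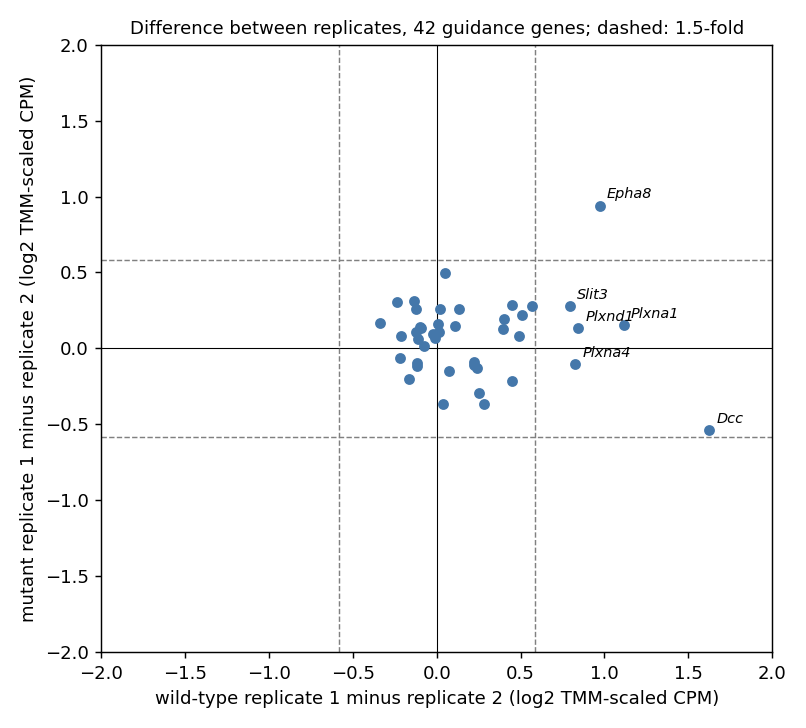
Difference between wild-type replicates 1 and 2 (x axis) and between mutant replicates 1 and 2 (y axis), both in log2 TMM-scaled CPM, with 1 point for each of the 42 tested guidance genes and dashed lines at 1.5-fold. Named points lie past a dashed line, and all 6 lie to the right, higher in wild-type replicate 1.

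Other genes of the same pathways were read from a list of 70, of which 69 were in the tables and 65 were tested. They comprised the other semaphorins, plexins, Robo, netrin and Unc5 genes, their co-receptors and the signalling proteins inside the cell. Of the 65, 4 rose and 6 fell, 15.4% against the 7.16% of all genes. The median log2 fold change was 0.01. All 10 were chosen by the test and are counted, not tested, as a group. The list itself was made with earlier results of these data known.

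All 5 of the intracellular signalling genes that passed fell, out of 32 tested, where 3.34% of all genes fell. In the list 20 of 32 genes were below 0, with a median log2 fold change of -0.13. Dpysl3, a collapsin response protein that links semaphorin signals to the cytoskeleton, was at 30.9 and 34.8 CPM in wild type and 12.9 and 13.001 in the mutant (log2 fold change -1.36, SE 0.12, edgeR adjusted p = 2.71e-05). Its relative Dpysl4 was at 27.5 and 26.8 CPM against 17.9 and 18.7 (-0.58). Mical1, an oxidase of actin that acts below plexins, was at 71.7 and 70.3 CPM against 49.0 and 48.0 (-0.56), and Ablim1, an actin-binding protein tied to netrin signalling, at 48.9 and 52.5 against 33.1 and 34.9 (-0.59). For each of these 4 genes the mutant libraries lay below both wild-type libraries. A gene on the opposite strand, Smpd2, overlaps 16.8% of the exon length of Mical1, whose values are uncertain for that reason. The fifth, Crmp1, had -0.49 and an adjusted p of 0.0471 by edgeR, and was named after its value was seen. It was not called without mutant replicate 2 (-0.33, adjusted p = 0.459) or without wild-type replicate 2 (0.0567), nor with DESeq2's size factors (0.0505).

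Dpysl3, Dpysl4 and Crmp1 are known from neurons, whose markers moved in both directions here. The neuronal genes Tubb3 (23.1 and 26.6 against 8.22 and 9.03 CPM) and Stmn2 (7.38 and 9.40 against 3.29 and 2.42) fell, while Gap43 (13.7 and 13.6 against 27.5 and 27.0) rose. Of 9 tested neuron markers 1 rose and 2 fell. Called or not, 7 had a log2 fold change below 0 and 2 above, with a median of -0.23. The part of neurons in the result was not tested.

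On the other side, Sema7a, a membrane-anchored semaphorin, rose from 1.86 and 1.81 CPM in wild type to 6.05 and 5.96 in the mutant. That was a log2 fold change of 1.70 (SE 0.20, edgeR adjusted p = 0.000265) or 3.24-fold, the largest among the called genes of both lists. Ntng1, a netrin relative anchored in the membrane, rose from 2.68 and 2.18 CPM to 6.94 and 5.22 (1.31, SE 0.22). Neo1, a receptor for netrin and repulsive guidance molecules related to Dcc, and Rgmb, a ligand of Neo1, also rose (0.34 and 0.44), and Sema6d fell (-0.50); these 3 were named after their values were seen. Without mutant replicate 1 the edgeR adjusted p of Neo1 was 0.289 and that of Rgmb 0.134. Without mutant replicate 2 they were 0.160 and 0.210. Sema6d had 0.172 without mutant replicate 2.

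The second comparison set the E10.5 bud beside wild-type E11.5 distal limb. Stage, dissected part and strain label changed together, and with 1 E10.5 library there is no test. The criterion for higher or lower was a distance of at least 2-fold from each wild-type library, in the same direction, on log2 CPM scaled with TMM (trimmed mean of M values). By that measure 3 guidance genes were higher at E10.5 and 5 lower, 18.6% of 43, compared with 16.2% of all 16323 genes (3.65% higher and 12.6% lower). The log2 differences below are on that TMM scale, while the CPM printed beside them are scaled to library size alone and give somewhat different ratios. Proximal limb markers were higher at E10.5, 5 of 7 past 2-fold, with a summed level of 722 CPM at E10.5 against 170 and 151, and their part in the differences was not tested.

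Among the ligands, Efna2 and Efnb2 were the genes higher at E10.5. Efna2 was at 46.5 CPM at E10.5 and at 16.1 and 18.2 in wild-type E11.5, a log2 difference of 1.67. Efnb2, which marks arteries and also acts in mesenchyme, was at 77.5 CPM against 37.6 and 36.0 (1.30). With these values Efna2 made up 34.2% of the ephrin-A level per kilobase at E10.5 and 12.6% and 14.1% in wild type. Summed endothelial markers were at 285 CPM at E10.5 against 230 and 238. Epha6 was the receptor in this group, at 50 counts or 0.594 CPM at E10.5 against 4 and 12 counts, a low level throughout.

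The 5 genes lower at E10.5 encode receptors and a ligand, and most of the 43 listed genes encode receptors. Plxna4 was at 12.6 CPM at E10.5 against 74.2 and 40.4 (log2 difference -1.88), Epha3 at 36.5 against 105 and 128 (-1.43), and Unc5c at 63.2 against 163 and 171 (-1.17). Nrp2 was at 233 CPM against 565 and 542 (-1.02, just past 2-fold on the TMM scale). It was the gene of the 5 that lost its place with DESeq2 size factors. The ligand Sema3e was at 1.29 CPM at E10.5 against 3.83 and 4.01 (-1.35). Epha4 (-0.93), Sema3d (-0.91), Sema3c (-0.95) and Efna1 (-0.91) came close without passing.

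How the libraries are scaled bears on these counts. Scaling by library size alone lowered the median difference of all genes by 0.23 on the log2 scale, and 3 guidance genes were then higher and 10 lower. The added genes were Epha4, Epha10, Efna1, Sema3c and Sema3d. The 8 genes named under TMM scaling kept their calls, and 5 of the 43 genes changed sign. Plxna1 and Plxnd1 were at 92.95 and 60.03 CPM at E10.5 and would join the higher group without wild-type replicate 1 (1.60 and 1.72). Dcc would join the lower group without wild-type replicate 2 (-2.16).

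**Figure D4:**
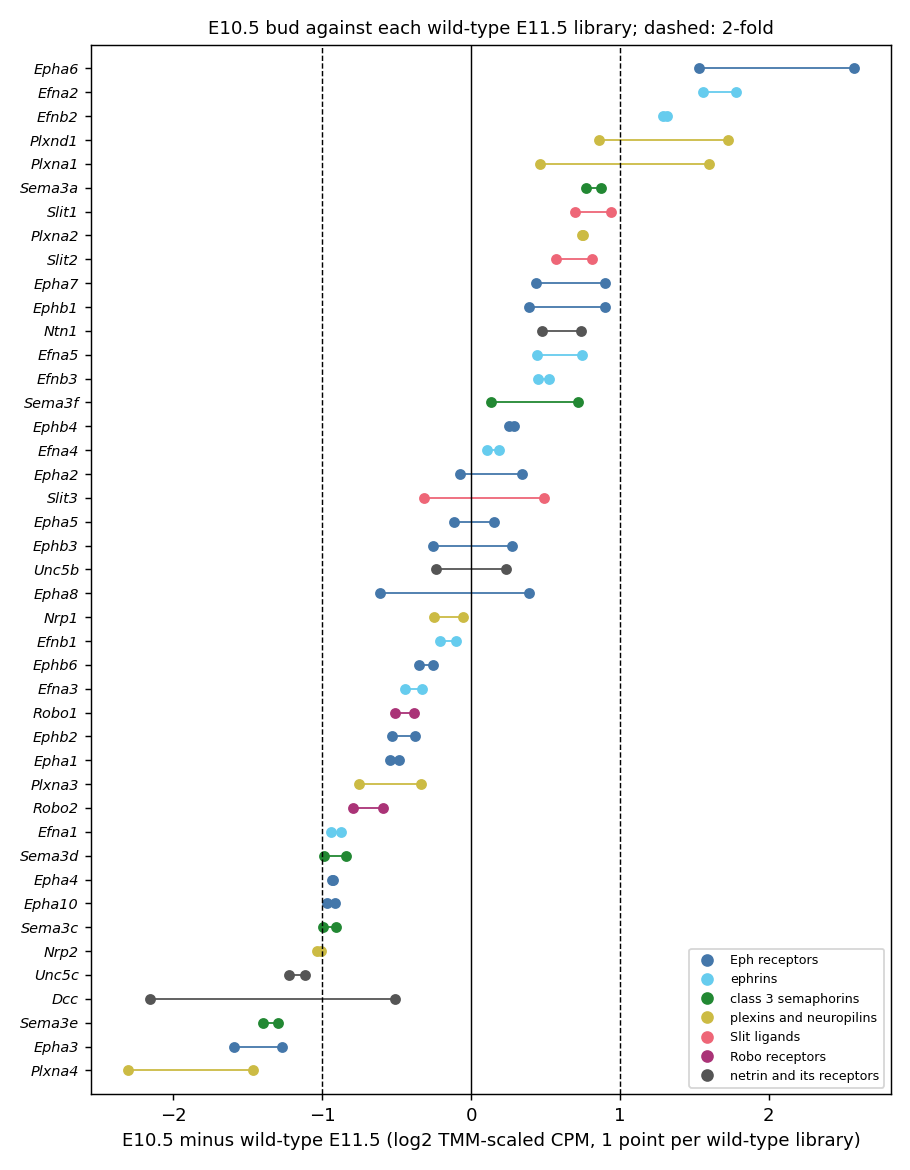
Difference between the E10.5 library and each wild-type E11.5 library (x axis, log2 TMM-scaled CPM, 2 points per gene joined by a line) for the 43 guidance genes (y axis), ordered by the mean difference and coloured by role. Dashed lines mark 2-fold; Efna2, Efnb2 and Epha6 have both points beyond the right line, and Plxna4, Epha3, Sema3e, Unc5c and Nrp2 beyond the left.

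Among the pathway genes 3 of 65 were higher and 9 lower at E10.5, or 18.5%, near the 16.2% of all genes. The largest differences were those of Ablim3 (-5.22), an actin-binding protein, Unc5d (-2.98), a netrin receptor, Flrt1 (-2.66), a ligand of Unc5 receptors, and Sema5b (-2.14), a transmembrane semaphorin. Ablim3 had 2 counts at E10.5 and 87 and 157 in wild type, so its size depends on the prior count added. Each of the 4 was at most 4.79 CPM in any of these 3 libraries.

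The 4 genes that changed in the mutant can be read across all 3 groups, with the caution that both comparisons share the wild-type libraries. Sema3c was at 16.6 CPM at E10.5, 39.4 and 36.0 in wild type and 20.9 and 23.2 in the mutant, and Efna1 at 12.4, then 28.2 and 26.3, then 18.6 and 13.3. For both genes the mutant values lay between the E10.5 value and the wild-type values on these CPM, scaled to library size alone. The TMM factors were 0.875 for E10.5 and 1.04 and 1.05 for the mutant libraries. With TMM scaling the lower Efna1 value of the mutant therefore falls below the E10.5 value, so the order for Efna1 depends on the scaling. Epha3 was at 36.5 CPM at E10.5, 105 and 128 in wild type and 189 and 169 in the mutant, with the mutant values furthest from E10.5. Epha5 was at 6.87 CPM at E10.5, close to the 8.84 and 7.15 of wild type, and lowest in the mutant.

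**Figure D5:**
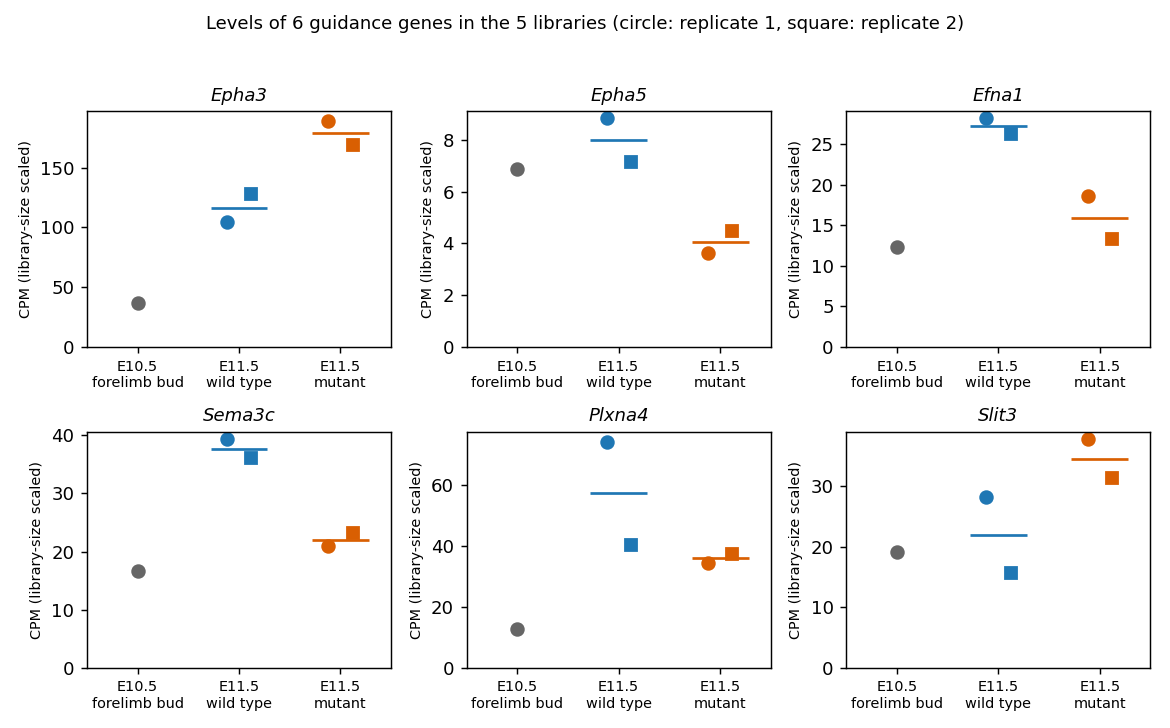
Level of Epha3, Epha5, Efna1, Sema3c, Plxna4 and Slit3 (y axis, CPM, linear from 0) in the E10.5, wild-type and mutant libraries (x axis), with 1 point per library and a line at the mean of 2 replicates. The 6 are the called genes plus Plxna4 and Slit3, chosen near the threshold. The genotypes do not overlap for any of them, as for 49.5% of all genes tested, and this is no separate result. The wild-type points lie far apart for Plxna4 (74.2 and 40.4) and Slit3 (28.2 and 15.7).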

How the data were processed

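Total RNA of 5 mouse forelimb libraries was sequenced after ribosomal RNA depletion, on both ends, with strand-specific libraries, per the labels' protocols. The deposited values are whole read counts, 1 row for each gene symbol, which the authors made with HTSeq. TopHat2 2.0.13, Cufflinks 2.1.1, SAMtools and the mm9 genome are named per the submitters' processing notes. HTSeq's strand setting and annotation are not given in the sources used here. Its 5 total lines were left out, of which reads without a feature were 24.3% to 39.6% of the table sums.

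The E11.5 libraries were filtered with filterByExpr at a minimum count of 10 and a total of 15; TMM factors and tests came from edgeR 4.0.16 in R 4.3.3 (quasi-likelihood F test, older estimate), genotype as the only term, with Benjamini-Hochberg adjustment over all 16166 genes and a threshold of 0.05. Standard errors and 95% intervals of log2 fold changes come from the F statistic and its degrees of freedom. Printed CPM are scaled to library size alone. DESeq2 1.42.0 was an alternative. The E10.5 comparison used log2 CPM with a prior count of 2. The labels state separate pools per genotype, and n is 2, so SDs and p-values rest on few libraries. The genes in full are those called, those past 2-fold at E10.5 and the uncalled gene nearest the threshold in each role. Members and lists were chosen with earlier results of these data known.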

Additional observations from a re-analysis of the deposited data

How the results depend on the processing

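Among all genes 1157 were called; the count was 1762 without a filter on low counts and between 796 and 2018 with 1 library left out, the highest without wild-type replicate 1. The guidance genes called numbered 4, or 8 without the filter, 7 with the replicate block, and 7 to 10 with 1 library left out. The same 4 genes were among them in every alternative run. Same-numbered libraries did not deviate together (correlation across genes -0.08), so the numbers are not shown to pair the libraries; under the block Plxna4 (edgeR adjusted p = 0.0317), Slit3 (0.00424) and Unc5b (0.0164) were added. The other pathway genes called numbered 10, with 6 to 15 when 1 library was left out. Past 2-fold at E10.5 were 8 guidance genes, or 13 with library-size scaling alone, 9 to 10 without 1 wild-type library, and 18 at a 1.5-fold threshold. The 12 pathway genes became 22 at that threshold and 14 to 16 without 1 wild-type library. The 1.5-fold threshold, and distance from 1 wild-type library in place of 2, are looser by construction. For the other changes the cause was not tested. DESeq2's size factors, its Wald test and the newer quasi-likelihood estimate each called the same 4 guidance genes. Genes under about 1 CPM, such as Epha6, Epha8 and Epha10, rest on few counts.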
